A study of Sus scrofa with 3 samples.

Results

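The genes described here are 9 factors of interferon and cytokine signalling: the interferon regulatory factors IRF1, IRF2, IRF3, IRF7 and IRF9, the signal transducers STAT2 and STAT3, and the Janus kinases JAK1 and JAK2. Probes were taken by the gene name of the array design or by a description that names the gene. This gave 23 of 43603 probes, for 8 of 6399 genes with a symbol. No probe carried the name of IRF2, a factor that competes with IRF1 for the same DNA sites, and it was not analysed here. The samples were cultures of PIE, labelled a non-transformed intestinal epithelial line and derived from the intestine of an unsuckled newborn piglet, grown for 3 days in serum-containing medium on collagen. The first group, TL2937+ETEC, was kept with Lactobacillus jensenii TL2937 for 48 h and, once washed, was given ETEC PAMPs for 12 h, the molecular patterns of enterotoxigenic Escherichia coli that the innate immune system recognises. The second, TL2766+ETEC, had Lactobacillus plantarum TL2766 in its place, and the third, ETEC, received the PAMPs without lactobacilli. Every group had 1 culture on 1 array, all 3 had met the PAMPs, and unstimulated cells were not analysed here. No difference below therefore has a replicate check or a p-value, and none is set against the resting state.

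The arrays did not show the marker pattern that this label would call for. Of 8 epithelial markers with a probe, 3 (KRT8, CLDN3 and OCLN) were well above background on all 3 arrays. KRT18, EPCAM and CLDN4 were not on any. KRT8 and CLDN3 were dim, at most 23.9 (TL2766+ETEC array) and 20.2 (ETEC array). The lowest signals counted as well above background were 11.6 to 12.9. OCLN was brighter, from 922 on the TL2937+ETEC array to 1141 on the ETEC array. By contrast 6 of 7 endothelial markers were well above background on all 3 arrays. The junction protein PECAM1 had 84015, 85368 and 86718 on the TL2937+ETEC, TL2766+ETEC and ETEC arrays. All 7 fibroblast or mesenchymal markers with a probe were also above background on the 3 arrays. VIM was bright, at 242642, 252338 and 251749, as was ACTA2, at 41874, 47431 and 53731. The rest (COL1A2, PDGFRB, THY1, DCN and LUM) were dim, from 28.5 for COL1A2 on the TL2766+ETEC array to 82.9 for THY1 on the ETEC array. The leukocyte marker PTPRC was not above background on any array, and the line is called PIE below. The values are scaled intensities: the processed intensity of a spot, divided by the 75th percentile of its array and multiplied by the geometric mean of the 3 percentiles. Relative to ETEC, 4 endothelial markers were at least 1.2-fold higher on each lactobacillus array, beside 7.18% of all genes with TL2937 and 8.12% with TL2766, and the dim marker VWF was lower with TL2937 (log2 difference -0.55). The adhesion receptor SELP had 15791 with TL2937 and 15777 with TL2766, against 4943 with ETEC alone, whereas PECAM1 and CDH5 lay within 1.2-fold. What part such differences had in the values below was not tested. Fewer cells of a kind and less RNA per cell cannot be told apart in such cultures.

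Interferons are secreted alarm signals. Type I interferon binds a receptor whose kinases are JAK1 and TYK2, and these phosphorylate STAT proteins, among them STAT2, which bind IRF9 to form ISGF3, the complex that switches on antiviral genes at interferon-stimulated response elements. Interferon gamma signals through JAK1 and JAK2 without STAT2 or IRF9, and the gene for IRF1 is among the first targets. Upstream, IRF3 and IRF7 are activated when pattern receptors such as TLR3 and TLR4 sense microbial products, and they induce the interferon genes themselves. In human and mouse cells IRF3 is made constitutively, whereas the genes for several of the other factors are themselves induced by interferon.

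The results turn on a few 60-base probes, which set how far each gene value can be trusted. IRF7 and IRF9 each rest on 1 probe, so both are shown, with a STAT2 probe and the pairs of probes that overlap. Capitals mark the longest unbroken run of bases shared by the members of a pair, and probes that may lie in an untranslated region are cut to 30 bases.
IRF7, A_72_P077861: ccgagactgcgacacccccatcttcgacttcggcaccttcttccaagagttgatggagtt
IRF9, A_72_P223322, bases 1 to 30: ggtggggaactcaagatgactcttttactt
STAT2, A_72_P442654: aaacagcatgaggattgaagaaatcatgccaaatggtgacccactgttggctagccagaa
STAT2, A_72_P088106, bases 1 to 30: gcactCTGATCTCAGATCTCCACTCTCCAG
STAT2, A_72_P119201, bases 1 to 30: CTGATCTCAGATCTCCACTCTCCAGAACTG
STAT3, A_72_P561986: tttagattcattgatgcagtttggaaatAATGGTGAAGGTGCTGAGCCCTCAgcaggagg
STAT3, A_72_P669204: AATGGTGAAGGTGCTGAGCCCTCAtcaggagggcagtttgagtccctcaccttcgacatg
JAK1, A_72_P496326, bases 1 to 30: AATGCATATATACCACGTACACCGCACTGT
JAK1, A_72_P645555, bases 1 to 30: tgctgAATGCATATATACCACGTACACCGC
The shared run was 54 bases long for the STAT2 pair, 24 for the STAT3 pair, 42 for the JAK1 pair and 24 for both JAK2 probes. The STAT2 and JAK1 pairs therefore read mostly the same bases. An extra base ends the JAK1 run, and the probes match again after it. The array design starts the STAT3 probes at bases 2325 and 2353. They overlap beyond the shared run, with a mismatched base after it, over the larger part of their length. The JAK2 pair overlaps over the smaller part. The other 4 STAT2 probes shared no run of 15 bases with the STAT2 pair or with each other. The array design places the 5 STAT2 probes that it assigns to the STAT2 transcript with starts between bases 2537 and 4589. Of the 43580 other probes on the array, 0 shared a run of 20 bases with any of the 23, on either strand.

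Setting TL2937+ETEC against ETEC shows how cells kept with L. jensenii TL2937 differed after the PAMPs from cells that had no lactobacilli. IRF7 and STAT2 were lower on the TL2937+ETEC array, while the other 6 genes lay within 1.2-fold. That fold, 0.26 on the log2 scale, is used below to describe a difference. Over 27 probes with 5 spots each, the log2 difference between these arrays had a median standard deviation of 0.11 between spots. The highest was 0.45, which is past 1.2-fold. The count of 2 of 8 genes at least 1.2-fold lower stands beside 12.4% of all 4888 genes measured on both arrays, and the count of 0 at least 1.2-fold higher beside 7.18%. The median log2 difference over the 8 genes was -0.15, against -0.040 over all genes. At 1.5-fold the count was 0 of 8 in each direction, beside 2.23% of all genes lower and 1.06% higher.

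IRF7, the factor that amplifies type I interferon production, had a scaled intensity of 5764 on the TL2937+ETEC array, 8068 on the TL2766+ETEC array and 8316 on the ETEC array. The TL2937+ETEC array is low and the other two lie close together. The log2 difference of TL2937+ETEC from ETEC was -0.53, which is 1.44-fold lower, and it ranked 162nd from the lowest of 4888 genes. It rests on the single IRF7 probe printed above.

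IRF3, the constitutive partner of IRF7 in inducing interferon genes, had 12067, 13998 and 13161 on the TL2937+ETEC, TL2766+ETEC and ETEC arrays. Its probes gave log2 differences of -0.13 and -0.10 for TL2937+ETEC against ETEC, so that both lay within 1.2-fold. IRF1, which switches on antigen presentation and chemokine genes, had 4890 on the TL2937+ETEC array, 5616 on the TL2766+ETEC array and 5453 on the ETEC array. Its probes differed by -0.16 and -0.097 in the same comparison. For IRF1 and IRF3 alike, each probe was lowest on the TL2937+ETEC array and highest on the TL2766+ETEC array.

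STAT2, the subunit that gives ISGF3 its activation domain, had 4327 on the TL2937+ETEC array, 5335 on the TL2766+ETEC array and 6196 on the ETEC array with A_72_P088106, the probe that represents it. Probe A_72_P442654, from another stretch of the transcript, had 314.8, 373.6 and 439.2 on the same arrays. Each of the 6 STAT2 probes was lowest on the TL2937+ETEC array and highest on the ETEC array. The log2 difference of TL2937+ETEC from ETEC was -0.52 with the representative probe, which is 1.43-fold lower and ranked 172nd from the lowest. Over the 6 probes it averaged -0.50 ± 0.076 (SD over probes of the same RNA, not over cultures) and ran between -0.62 and -0.40. All 6 were lower by at least 1.2-fold, against 12.4% of 25803 probes measured on both arrays.

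IRF9, the DNA-binding subunit of ISGF3, did not share that difference. Its probe had 2093 on the TL2937+ETEC array, 2151 on the TL2766+ETEC array and 2217 on the ETEC array. The log2 difference of TL2937+ETEC from ETEC was -0.083, rank 1935 from the lowest of 4888 genes. Of these ISGF3 subunits, STAT2 was thus at least 1.2-fold lower with every probe and IRF9 lay within 1.2-fold with its only one.

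STAT3, which carries signals of the interleukin-6 family, was dim, with 225.1 on the TL2937+ETEC array, 251.5 on the TL2766+ETEC array and 261.4 on the ETEC array. That probe gave a log2 difference of -0.22 for TL2937+ETEC against ETEC, but the 4 STAT3 probes ran from -0.22 to -0.047. Within the overlapping pair printed above, A_72_P561986 differed by -0.18 and A_72_P669204 by -0.051. JAK1, the kinase shared by interferon and interleukin-6 receptors, had 17558 on the TL2937+ETEC array, 18234 on the TL2766+ETEC array and 19374 on the ETEC array, and its 5 probes differed by -0.14 to -0.036. JAK2, the second kinase of the interferon gamma receptor, had 238.8, 236.7 and 239.3, a log2 difference of -0.0031. Its other probe gave 0.012. The kinase genes thus lay within 1.2-fold on all 3 arrays.

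**Figure D1:**
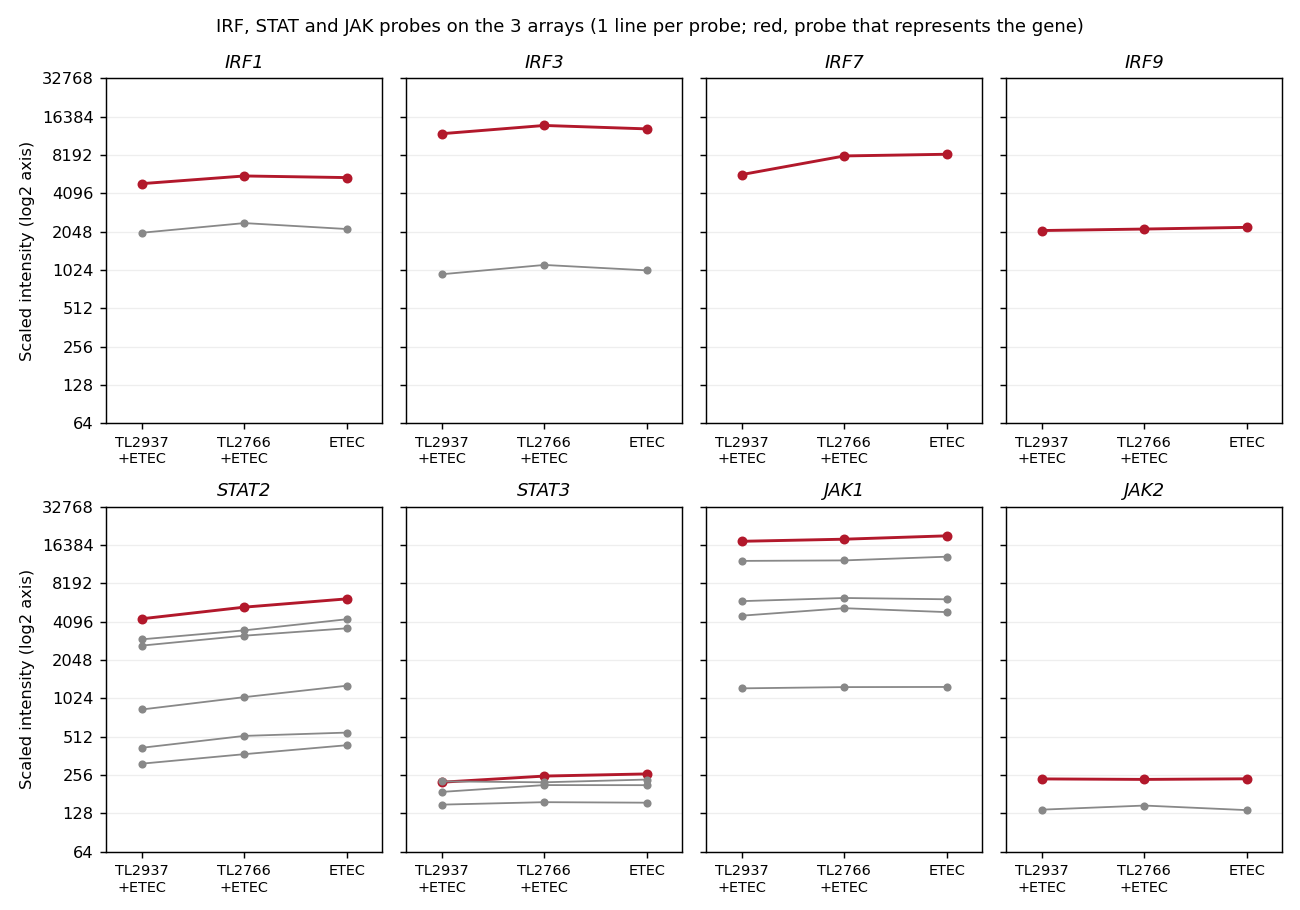
Scaled intensity (log2 axis, same range in every panel) of all 23 probes on the TL2937+ETEC, TL2766+ETEC and ETEC arrays, 1 line per probe and 1 array per group, with the probe that represents each gene in red. All 6 STAT2 probes and the IRF7 probe are lowest on the TL2937+ETEC array, and the IRF9 and JAK lines are nearly flat.

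The same question was asked of L. plantarum TL2766. None of the 8 genes was at least 1.2-fold lower or higher on the TL2766+ETEC array than on the ETEC array, against 8.98% and 8.12% of 4864 genes, and none reached 1.5-fold, as 1.56% of genes did below 0 and 1.44% above it. The median log2 difference was -0.044, against 0.00095 over all genes. STAT2 differed most, by -0.22 with its representative probe and by -0.30 to -0.086 over its 6 probes, all 6 of them below 0 and 2 of them at least 1.2-fold lower, beside 10.6% of all probes. Its mean over probes was -0.22 ± 0.077 (SD over 6 probes). IRF7 differed by -0.044 and IRF9 by -0.044, and both lay close to the ETEC array. IRF3 (0.089) and IRF1 (0.042) lay above 0 with both of their probes, the second probes at 0.14 and 0.15. STAT3 differed by -0.056, JAK1 by -0.087 and JAK2 by -0.016, and each of these 3 genes had a probe above 0. Both comparisons use the same ETEC array, so a low or high value there enters both.

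Set directly against each other, the lactobacillus arrays differed most in IRF7. IRF7 was 1.40-fold lower on the TL2937+ETEC array than on the TL2766+ETEC array (log2 difference -0.49, rank 110 from the lowest of 4903 genes). STAT2 was 1.23-fold lower, with a log2 difference of -0.30 and a range of -0.32 to -0.23 over its 6 probes, 3 of them at least 1.2-fold lower, beside 7.38% of all probes. These 2 of 8 genes stand beside 7.16% of all genes that were at least 1.2-fold lower, and 0 were at least 1.2-fold higher, beside 4.16%. At 1.5-fold there were 0 in each direction, beside 1.02% lower and 0.388% higher. With quantile normalization the STAT2 difference was -0.24 and with cyclic loess -0.258, inside 1.2-fold, while IRF7 stayed outside it. IRF3 (-0.21), IRF1 (-0.20) and STAT3 (-0.16) lay within 1.2-fold, and both IRF3 and both IRF1 probes were below 0. IRF9 (-0.039), JAK1 (-0.055) and JAK2 (0.013) lay closest to 0, and the sign of each turned under at least 1 alternative processing, that of JAK2 in all 3 comparisons. Of all 23 probes, 21 were below 0, beside 55.9% of all probes. In the TL2937+ETEC comparison with ETEC 22 of 23 were below 0, beside 53.1%, and in that of TL2766+ETEC 14 of 23, beside 49.2%. Probes of a gene read the same RNA and are not independent.

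**Figure D2:**
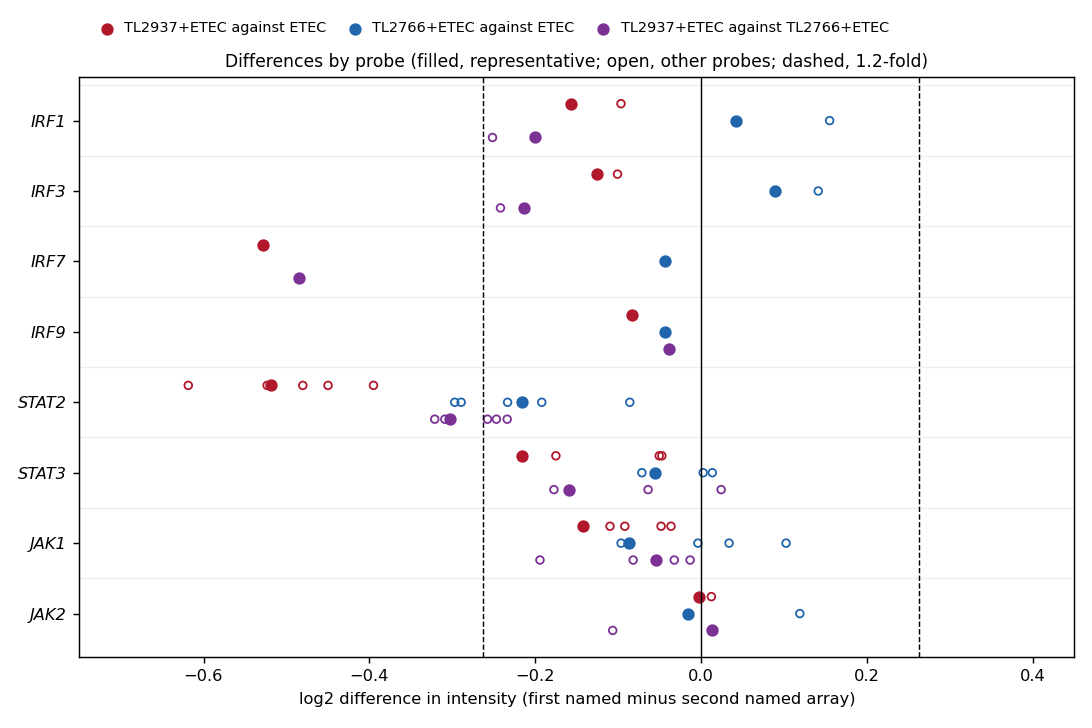
Log2 difference in intensity (x axis) of every probe of the 8 genes for TL2937+ETEC against ETEC (red), TL2766+ETEC against ETEC (blue) and TL2937+ETEC against TL2766+ETEC (purple), filled for the representative probe and open for the others, with dashed lines at 1.2-fold. In red, IRF7 and all STAT2 probes lie left of the dashed line at -0.26, and no other probe does.

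**Figure D3:**
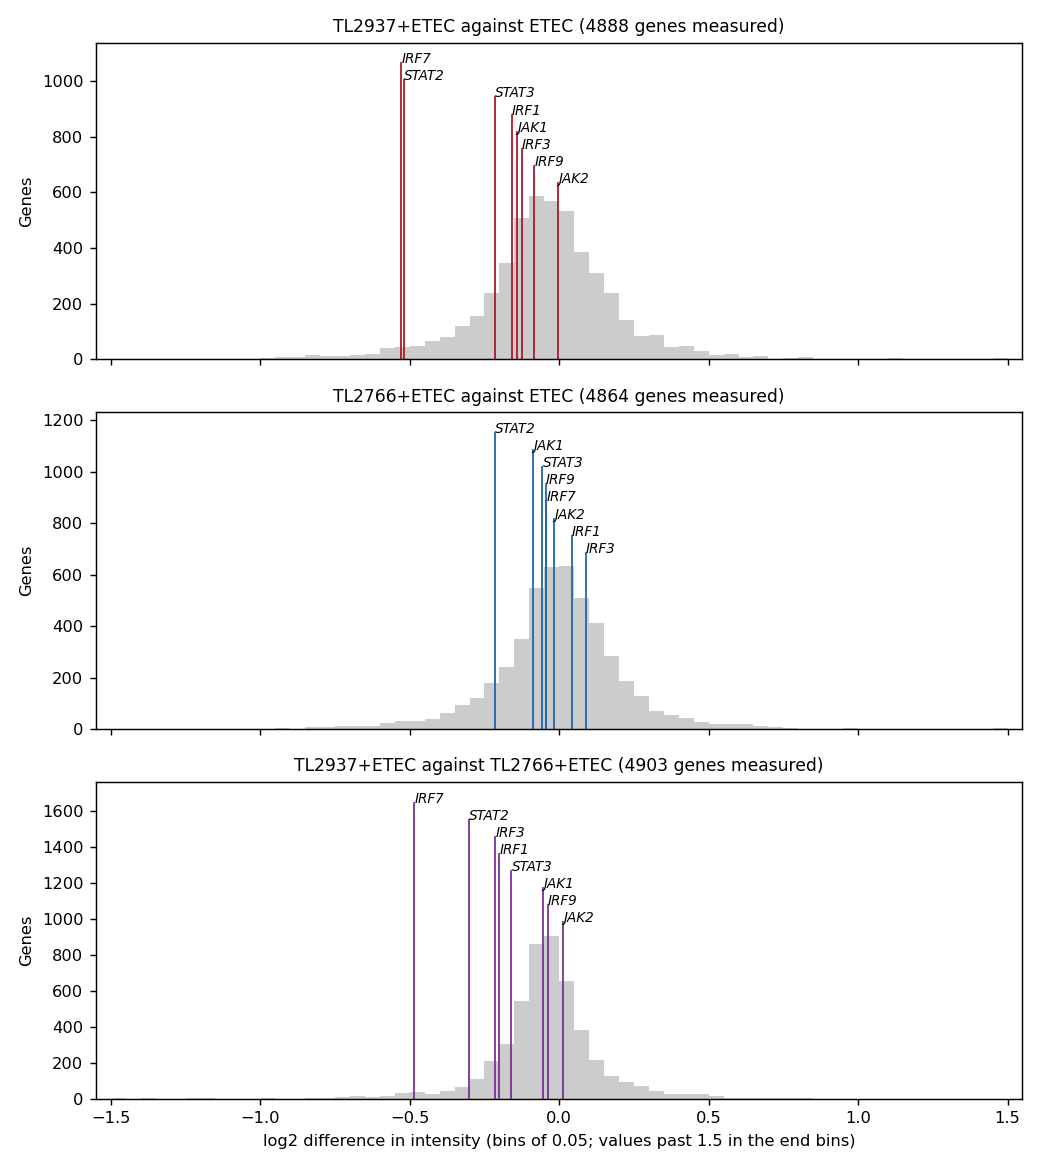
Number of genes (y axis) by log2 difference in intensity (x axis, bins of 0.05) in the 3 comparisons, with a line at each of the 8 genes. IRF7 (-0.53) and STAT2 (-0.52) stand in the lower tail for TL2937+ETEC against ETEC, and the other 6 lie within the bulk of the 4888 genes.

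Genes around these factors were read from lists of ligands, receptors, sensors, inhibitors and targets. Among ligands, IFNB1, the gene for interferon beta, was dim, with 35.2 on the TL2937+ETEC array, 43.3 on the TL2766+ETEC array and 34.4 on the ETEC array. The lowest signals that counted as well above background lay between 11.6 and 12.9. The interferon gamma gene IFNG was not well above background on any array, and IFNA1 was so only on the TL2766+ETEC array, at 15.1. All 5 receptor genes with a probe lay within 1.2-fold in each comparison. IL10RB, a chain shared with the interleukin-10 receptor, differed from ETEC by -0.21 with TL2937 and by -0.19 with TL2766, and IFNGR2 by -0.13 and 0.097. The receptor chain IFNAR2 had 222995, 228765 and 233857 on the TL2937+ETEC, TL2766+ETEC and ETEC arrays, and IFNGR1 differed from ETEC by -0.14 with TL2937 and by -0.26 with TL2766, although its 4 probes ran from -0.14 to 0.036 and from -0.26 to 0.094.

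Of 10 measured sensors, adaptors and kinases that activate IRF3 and IRF7, 3 were at least 1.2-fold lower with TL2937 than with ETEC alone, and 0 with TL2766, beside 12.4% and 8.98% of all genes. They were the double-stranded RNA receptors TLR3 (-0.54) and IFIH1 (-0.39) and the helicase DHX58 (-0.33). With TL2937 the other 7 lay within 1.2-fold, among them TLR4 (0.10, its 5 probes from 0.0023 to 0.14). MYD88, the adaptor of most Toll-like receptors, differed by -0.18, and the list's median was -0.11. Among other IRF, STAT and JAK genes, IRF8 (-0.40) was lower with TL2937, on 1 dim probe at 20.2 with TL2937, against 26.7 with ETEC alone. STAT5A (-0.032), STAT5B (0.16), STAT6 (0.034), TYK2 (-0.17) and JAK3 (-0.051) lay within 1.2-fold in that comparison. Probes of STAT5B and STAT6 disagreed in sign. JAK3 differed by -0.72 between TL2766+ETEC and ETEC, on 1 probe at 17.7 and 29.1, near the lowest measurable signals.

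Inhibitors of JAK-STAT signalling were mostly level: of 11 measured, 2 were at least 1.2-fold lower and 1 higher with TL2937 than with ETEC alone, beside 12.4% and 7.18% of all genes. USP18, which blocks the type I interferon receptor and is itself induced by interferon, differed by -0.51 and the phosphatase PTPN6 by -0.39, while SOCS2 differed by 0.32 and SOCS5 by -0.26. The 2 PTPN6 probes ran from -0.39 to -0.12, the latter within 1.2-fold. SOCS2 had 65.6 with TL2937, against 52.5 with ETEC alone. On the TL2766+ETEC array 1 of the 11 was lower, PTPN6 at -0.30, and 0 were higher, beside 8.98% and 8.12%. The other PTPN6 probe differed by -0.14 there, within 1.2-fold. In the interleukin-6 family IL6ST, the signalling receptor gp130, differed by -0.18 with TL2937 and by -0.19 with TL2766. IL6 differed by -0.19 with TL2937 and by 0.52 with TL2766, and OSM (-0.72 and 0.25) and IL6R (-0.044 and -0.42) rested on 1 dim probe each.

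The targets of these factors did not all follow the same line. Of 17 ISGF3 targets measured, 15 were at least 1.2-fold lower with TL2937 than with ETEC alone, 2 were within that fold, and the median was -0.52, beside 12.4% and -0.040 over all genes. The members that differed most were OASL, OAS1, IFITM1 and HERC5, from -0.94 to -0.65. Of 12 genes listed as IRF1 and interferon gamma targets, 11 were at least 1.2-fold lower, beside the same 12.4%, with a median of -0.51. GBP2 differed by -0.67, CXCL9 by -0.64, CXCL11 by -0.59 and PSMB8 by -0.58. IRF1 itself differed by -0.16. Of 12 STAT3 targets 0 were at least 1.2-fold lower and 1 was higher, beside 12.4% and 7.18% of all genes, with a median of -0.019. They included BCL2L1 (-0.18), FOS (-0.17), MYC (-0.17) and haptoglobin (HP, 0.28, on 1 dim probe), and the FOS probes disagreed in sign. On the TL2766+ETEC array 4 of 17 ISGF3 targets, 1 of 13 IRF1 and interferon gamma targets and 1 of 12 STAT3 targets were at least 1.2-fold lower than on the ETEC array, with medians of -0.23, -0.13 and 0.043. Over all genes the share lower was 8.98% and the median 0.00095. The counts at least 1.2-fold higher, in the same order of lists, were 0, 0 and 1, beside 8.12% of all genes. The target lists were chosen with results of these arrays known, and their lower values are not independent evidence of direction.

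**Figure D4:**
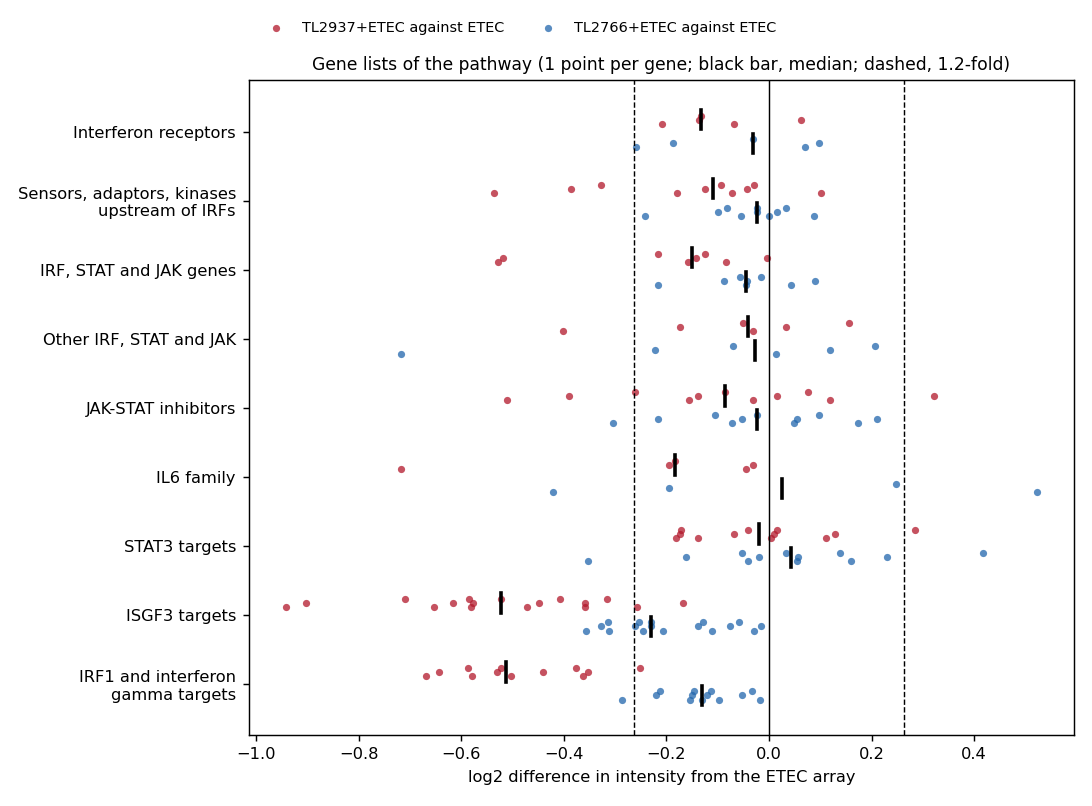
Log2 difference in intensity from the ETEC array (x axis) of each measured gene of 9 groups, for TL2937+ETEC (red) and TL2766+ETEC (blue), with the median as a black bar and dashed lines at 1.2-fold. The red points of the ISGF3 targets and of the IRF1 and interferon gamma targets lie mostly left of the dashed line, with medians of -0.52 and -0.51, and those of the STAT3 targets lie around 0, with a median of -0.019.

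IRF7 differed most of the 8 genes between TL2937+ETEC and ETEC, and the genes nearest to it were sought by the Euclidean distance between log2 values centred over the 3 arrays, among 4836 genes. The nearest were the antiviral gene IFIT3 (distance 0.010), the tight junction gene CLDN3 (0.011), the growth factor gene BTC (0.012), the complement protease gene C1R (0.023) and FAM84A (0.032). IFIT3 had 20847, 29353 and 29955 on the TL2937+ETEC, TL2766+ETEC and ETEC arrays, and C1R had 6163, 8811 and 9052. CLDN3, BTC and FAM84A were dim, at 13.9, 43.8 and 76.1 on the TL2937+ETEC array. STAT2 ranked 76th by this distance. Over 3 arrays many genes lie close to any pattern, and the distances are a description.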

How the data were processed

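RNA of 3 PIE cultures (1 per group, grouped by the labels) was hybridised to 1-colour porcine Agilent arrays on 1 slide, so that array position and group cannot be told apart. Per the labels' protocols, 200 ng of RNA was labelled with Cy3. Per the file headers, the deposited processed intensity came from Agilent Feature Extraction 10.7.3.1, after spatial background subtraction and correction of a trend within the array. The authors' value table held the same intensity, to within 0.496%.

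Control spots were left out, and each array's 75th percentile of log2 intensity (503, 481 and 459 for TL2937+ETEC, TL2766+ETEC and ETEC as intensities) was subtracted. Outlier spots (4 to 9 per array) were left out after that. Between 60.9% and 62.5% of gene spots were well above background by the software's flag, and 0 were saturated. Each gene took the value of 1 probe, the one of highest mean log2 intensity among those above background on all arrays (among all, where none was), and was measured where that probe was above background on both arrays. Symbols came from the array design, or from accessions and synonyms in a RefSeq table of Sscrofa11.1, and each of the 8 genes matched. IRF9 carries a gene identifier on the array, and 1 STAT2 probe was found by its description. A further probe, whose description names the inhibitor PIAS2, was left out.

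The members and lists were chosen with earlier results of these data known. The text names all members, up to 4 genes per list with the largest difference between TL2937+ETEC and ETEC, and the 5 genes nearest to IRF7. TLR4 is named in addition, as a receptor introduced above. A further gene of the lists is not reported here. Promoter sequences were not used here, so motifs were not searched. With 1 array per group no test was made, and the number of arrays limits the precision. The steps were tested on simulated data. Alternatives changed the scaling (quantile, array median, cyclic loess, 75th percentile of detected probes), the background (normexp, offset 50), the source (the authors' table), the filter (none, or bright probes), the probes (a mean per gene, or outlier spots kept) and the fold (1.5 or 2). The work used R 4.3.3 with limma 3.58.1, and Python 3.11.15 with matplotlib 3.10.9, numpy 2.4.6 and pandas 2.3.3.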

Additional observations from a re-analysis of the deposited data

How the results depend on the processing

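For TL2937+ETEC against ETEC, 2 genes were at least 1.2-fold lower under each of the 10 alternatives of scaling, background, probes and values, and 0 were at 1.5-fold or at 2-fold. For TL2937+ETEC against TL2766+ETEC the count was 1 with quantile normalization, 1 with cyclic loess, and 0 at 1.5-fold and at 2-fold. The smaller counts at higher folds follow from the threshold. Over the alternatives IRF7 ranged from -0.54 to -0.47 and STAT2 from -0.53 to -0.47 for TL2937+ETEC against ETEC. Each of the 234 values of single genes moved by less than the median standard deviation between spots. The share of all genes at least 1.2-fold lower depended on the background correction, the filter and the scaling. For TL2937+ETEC against ETEC it was 8.53% with the normexp correction, 9.14% among bright probes and 18.3% with no filter. For TL2766+ETEC against ETEC these shares were 5.10%, 5.15% and 15.9%, and for TL2937+ETEC against TL2766+ETEC 3.00%, 3.54% and 12.0%. Scaling to the 75th percentile of detected probes gave 9.59%, 8.37% and 5.38% in these comparisons, in the same order. The array median gave 13.2%, 8.86% and 7.75%. No paired analysis was possible because each group had 1 array. Leaving out a replicate was not possible for the same reason.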
